A study of Mus musculus with 7 samples.

Results

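The 9 genes *Mbp*, *Mog*, *Mag*, *Mobp*, *Cnp*, *Cldn11*, *Opalin*, *Mal* and *Ermn*, which encode structural myelin proteins and other proteins of mature oligodendrocytes, were followed in the cerebral cortex of mice that cannot take up creatine (Cr) through its transporter. They were chosen by symbol from the 24346 genes listed, for what they are known to encode, with earlier results of these data known. All 9 were among the 12988 genes that passed the filter on low values. RNA-seq libraries came from 4 CrT-/y males, hemizygous for a deletion in *Slc6a8*, the X-linked gene of the Cr transporter, and from 3 CrT+/y wild-type littermates. All 7 animals were on a C57BL/6J background, untreated, aged postnatal day 100, and each gave 1 library. The deletion is carried by every cell of the animal, so oligodendrocytes, neurons and other glia all lacked the intact gene. Levels are FPKM, that is, numbers of sequenced fragments that the authors had divided by transcript length and library size.

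Oligodendrocytes wrap axons with myelin, a stack of membrane layers that insulates the axon and speeds conduction. Their precursors stop dividing, pass through a short newly formed stage and then switch on the myelin genes under transcription factors such as Olig2, Sox10 and Myrf. Some of the products hold the compacted layers together, others form the seal between layers, and others sit in the uncompacted loops or face the axon or the outside. In the adult cortex the deep layers and the adjacent white matter hold most of the myelin.

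*Slc6a8* itself was measured at 12.4, 14.9, 14.7 and 15.7 FPKM in CrT-/y replicates 0 to 3 and at 32.3, 29.6 and 28.1 FPKM in CrT+/y replicates 1 to 3. The groups did not overlap, and the CrT-/y mean was 48.1% of the CrT+/y mean (log2 fold change -1.05, limma adjusted p = 0.0024). Summed FPKM ranged from 382949 to 403414 per animal, and genes above 0 FPKM from 17207 to 17821. Sequencing depth relative to the other libraries, estimated from 2569 weakly expressed genes, ranged from 0.858 in CrT+/y replicate 1 to 1.23 in CrT-/y replicate 2. Over the whole table, 941 genes were lower and 377 higher in CrT-/y mice at an adjusted p under 0.1, the threshold of the study. The study's own list at that threshold held slightly more higher than lower genes. Of the calls made here, the lower genes were 71.4%. The share was 51.2% with quantile normalization, 38.5% with upper quartile scaling, 51.8% with median centring and 53.2% after removing a trend with transcript length. The same settings left *Ermn* lower by 0.72 to 0.75 on the log2 scale.

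Across the members, 1 of 9 was lower in CrT-/y mice at an adjusted p under 0.1 and none was higher. Among all tested genes 7.25% were called lower and 2.9% higher, 10.1% in all. At an unadjusted p under 0.05 the limma count was also 1 of 9, against 25.0% of all genes. The single called gene was *Ermn*, at 58.6% of the CrT+/y mean. The mean log2 level was lower in CrT-/y mice for all 9 members, as it was for 58.2% of all genes, with a median log2 fold change of -0.22 over the members and -0.03 over all genes. Much of this shift rested on 1 animal. When CrT-/y replicate 3 was left out, 6 of 9 were negative and the median over the members was -0.03, that of all genes. *Ermn*, *Mal*, *Mobp* and *Mbp* were then at -0.609, -0.245, -0.157 and -0.149, and the rest lay from -0.029 (*Opalin*) to 0.105 (*Cnp*). In 8 of 9 members the groups overlapped, and in 1, *Ermn*, every CrT-/y animal lay below every CrT+/y animal, a pattern found in 15.0% of all genes. In bulk cortex, fewer oligodendrocytes and less of these transcripts per oligodendrocyte cannot be told apart.

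**Figure D1:**
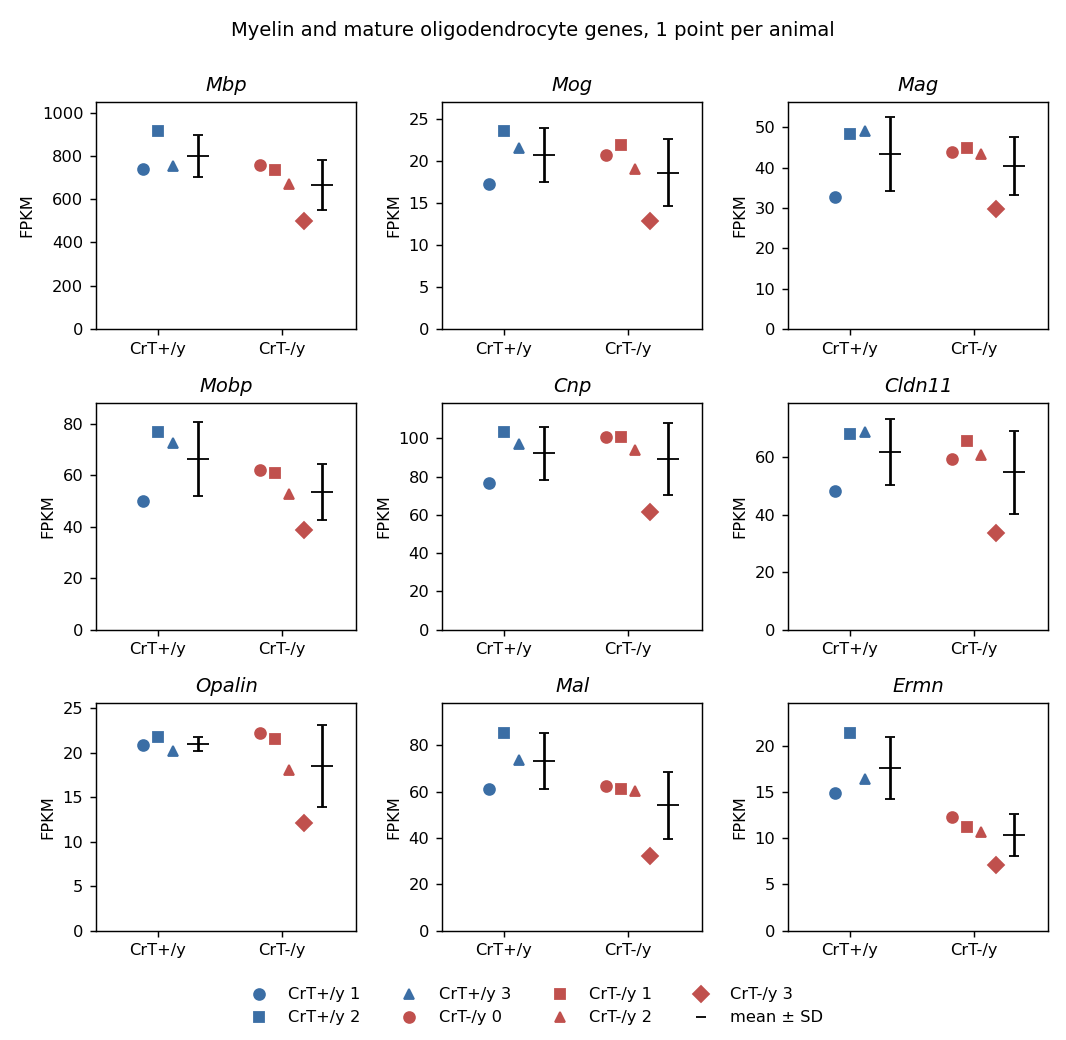
Level in FPKM (vertical axes, each starting at 0) of the 9 members in every animal, with CrT+/y in blue, CrT-/y in red, 1 symbol per animal, and the mean ± SD beside each group (n = 3 and n = 4). CrT-/y replicate 3 (diamond) is the lowest of the 7 animals in all 9 members, and the groups are separate in *Ermn* alone, at 7.04 to 12.2 FPKM against 14.9 to 21.4 FPKM.

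By level the members formed steps. *Mbp* was far above the rest, with a CrT+/y mean of 801 FPKM against 92.2 FPKM for *Cnp*, the next. *Mal*, *Mobp* and *Cldn11* followed at 73.4, 66.3 and 61.7 FPKM, and their ranges over animals overlapped with each other. *Mag* had a CrT+/y mean of 43.4 FPKM. *Opalin* and *Mog*, at 20.9 and 20.8 FPKM, could not be separated by their spread, and *Ermn* was the lowest at 17.6 FPKM and lay below both in every animal. In CrT-/y mice *Mbp*, *Cnp* and *Ermn* kept these places, at 665, 89.3 and 10.3 FPKM, while *Cldn11*, *Mal* and *Mobp* were at 54.9, 54.1 and 53.6 FPKM.

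The myelin basic protein gene *Mbp* encodes the protein that adheres the cytoplasmic faces of compact myelin. It was at 756, 733, 671 and 498.5 FPKM in CrT-/y replicates 0 to 3 and at 738, 912 and 753 FPKM in CrT+/y replicates 1 to 3. Of the 4 CrT-/y animals, 3 lay below the lowest CrT+/y animal and 1 did not. The means were 665 ± 117 and 801 ± 96.8 FPKM (SD, n = 4 and n = 3), and CrT-/y reached 83.0% of CrT+/y. The log2 fold change was -0.28 ± 0.14 (SE), with a 95% interval from -0.60 to 0.04 and a limma adjusted p = 0.25, and the exact permutation test over all 35 splits of the animals gave p = 0.2 (two-sided, here and in all tests of single genes). The difference therefore did not pass either test.

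*Mobp*, whose product is a second small basic protein of the cytoplasmic side of compact myelin, lies on chromosome 9 at 120149707-120181484, plus strand (GRCm38, here and for the other members). It was at 62.1, 60.9, 52.9 and 38.6 FPKM in CrT-/y replicates 0 to 3 and at 49.9, 76.7 and 72.4 FPKM in CrT+/y replicates 1 to 3. CrT+/y replicate 1 lay below 3 of the CrT-/y animals, so the groups overlapped. The difference was -0.31 ± 0.19 on the log2 scale, with a 95% interval from -0.73 to 0.12, a limma adjusted p = 0.33 and an exact permutation p = 0.286.

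*Mal* (chromosome 2, 127633226-127656695, minus strand) encodes a small membrane proteolipid that associates with the lipid-rich domains of the myelin membrane. Its levels were 62.5, 61.1, 60.3 and 32.4 FPKM in CrT-/y replicates 0 to 3 and 61.0, 85.4 and 73.7 FPKM in CrT+/y replicates 1 to 3. CrT-/y replicates 0 to 2 lay within 3 FPKM of CrT+/y replicate 1, and CrT-/y replicate 3 stood well below all others. The CrT-/y mean was 73.7% of the CrT+/y mean. The log2 fold change was -0.47 ± 0.22, with a 95% interval from -0.97 to 0.03, a limma adjusted p = 0.22 and an exact permutation p = 0.257. Without CrT-/y replicate 3 the log2 fold change was -0.24 (adjusted p = 0.26 by limma).

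*Cldn11* (chromosome 3, 31149920-31164324, plus strand) encodes claudin 11, which forms the tight junction strands between myelin layers. It was at 59.4, 65.7, 60.8 and 33.6 FPKM in CrT-/y replicates 0 to 3 and at 48.4, 67.9 and 68.7 FPKM in CrT+/y replicates 1 to 3. Between genotypes the log2 fold change was -0.20 ± 0.22, with a 95% interval from -0.70 to 0.30, a limma adjusted p = 0.62 and an exact permutation p = 0.657. Leaving out CrT-/y replicate 3 turned the direction, to 0.02, and the other 3 CrT-/y animals averaged 100.4% of the CrT+/y mean.

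*Cnp* (chromosome 11, 100574904-100591729, plus strand) encodes a cyclic nucleotide phosphodiesterase that keeps cytoplasmic channels open in uncompacted myelin. Its levels were 100.7, 100.8, 93.9 and 61.7 FPKM in CrT-/y replicates 0 to 3 and 76.5, 103.2 and 96.9 FPKM in CrT+/y replicates 1 to 3. Apart from CrT-/y replicate 3 and CrT+/y replicate 1 the animals were close to each other, between 93.9 and 103.2 FPKM. The log2 fold change was -0.06 ± 0.17, with a 95% interval from -0.45 to 0.33, a limma adjusted p = 0.85 and an exact permutation p = 0.83. Its direction was not stable: the value was 0.01 with quantile normalization, 0.10 when CrT-/y replicate 3 was left out and 0.02 when CrT+/y replicate 2 was. *Cnp* shares 154 exonic bases with *Dnajc7* on the opposite strand, measured at 60.2 to 71.7 FPKM, and whether the counting used strand is not given in the sources used here.

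*Mag* (chromosome 7, 30899176-30914873, minus strand) encodes an adhesion protein of the innermost myelin membrane, which faces the axon. It was at 43.8, 45, 43.5 and 29.8 FPKM in CrT-/y replicates 0 to 3 and at 32.9, 48.4 and 49.0 FPKM in CrT+/y replicates 1 to 3. The animals at the low end were 1 of each genotype, CrT-/y replicate 3 and CrT+/y replicate 1. On the log2 scale the difference was -0.10 ± 0.17, with a 95% interval from -0.49 to 0.30, a limma adjusted p = 0.77 and an exact permutation p = 0.543. It became 0.04 when CrT-/y replicate 3 was left out and 0.004 when CrT+/y replicate 3 was.

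*Mog* (chromosome 17, 37010743-37023398, minus strand) encodes a glycoprotein of the outermost surface of the sheath. Levels were 20.7, 22.0, 19.1 and 12.8 FPKM in CrT-/y replicates 0 to 3 and 17.3, 23.5 and 21.5 FPKM in CrT+/y replicates 1 to 3. The 2 genotypes overlapped over most of their range. The log2 fold change was -0.17 ± 0.18, with a 95% interval from -0.57 to 0.23, a limma adjusted p = 0.58 and an exact permutation p = 0.571, and without CrT-/y replicate 3 it was -0.003.

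*Opalin* (chromosome 19, 41061710-41077113, minus strand) encodes a transmembrane glycoprotein found on oligodendrocytes. It was at 22.2, 21.6, 18.03 and 12.1 FPKM in CrT-/y replicates 0 to 3 and at 20.9, 21.8 and 20.2 FPKM in CrT+/y replicates 1 to 3. The CrT+/y animals were tight, with an SD of 3.85% of their mean, the smallest among the 9 members. The CrT-/y animals spread from the highest level of all 7 to the lowest. Its log2 fold change was -0.22 ± 0.18, with a 95% interval from -0.63 to 0.19, a limma adjusted p = 0.49 and an exact permutation p = 0.514. It was -0.03 without CrT-/y replicate 3.

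*Ermn* (chromosome 2, 58045113-58052864, minus strand) encodes ermin, an actin-binding protein that appears late in oligodendrocyte differentiation and lies in the outer and paranodal cytoplasmic loops of the sheath. It was at 12.2, 11.2, 10.7 and 7.04 FPKM in CrT-/y replicates 0 to 3 and at 14.9, 21.4 and 16.4 FPKM in CrT+/y replicates 1 to 3. The highest CrT-/y animal lay below the lowest CrT+/y animal, also without CrT-/y replicate 3. The means were 10.3 ± 2.26 and 17.6 ± 3.37 FPKM (SD, n = 4 and n = 3). *Ermn* fell by 0.78 ± 0.19 on the log2 scale, with a 95% interval from -1.20 to -0.36, a limma adjusted p = 0.057 and an exact permutation p = 0.0286, the smallest p this design can give.

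The call for *Ermn* was close to its threshold. The limma adjusted p was 0.13, 0.12, 0.11 and 0.13 without CrT-/y replicate 1, CrT-/y replicate 2, CrT+/y replicate 1 and CrT+/y replicate 2, and 0.10 without the filter on low values. Over those settings the log2 fold change of *Ermn* was -0.83, -0.81, -0.89, -0.63 and -0.78. Over all 20 alternatives its adjusted p ranged from 0.042 to 0.13. *Ermn* shares 237 exonic bases with *Galnt5* on the opposite strand, which was measured at 0.021 to 0.071 FPKM.

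**Figure D2:**
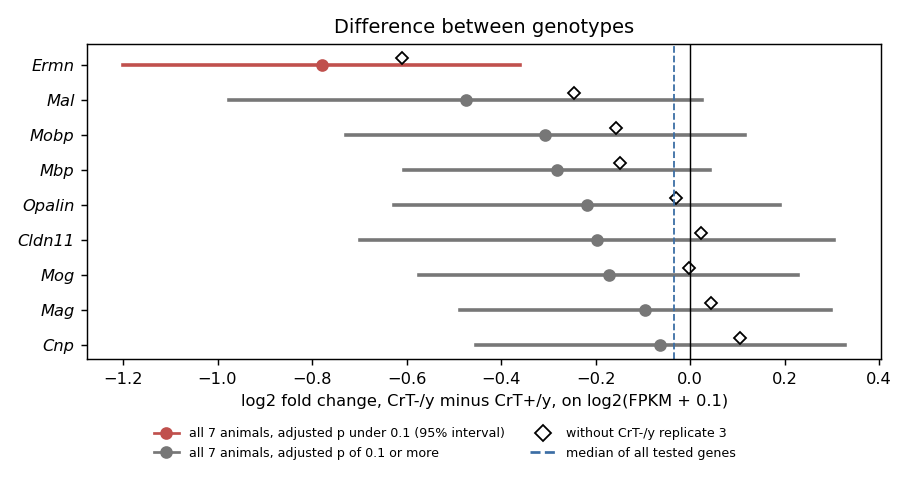
Log2 fold change of each member, CrT-/y minus CrT+/y, on log2(FPKM + 0.1) (horizontal axis), as the limma estimate over 7 animals with its 95% interval (circles and bars, red where the adjusted p is under 0.1), and the estimate without CrT-/y replicate 3 (open diamonds). All 9 circles lie left of 0 and 1 interval, that of *Ermn*, excludes it, while without CrT-/y replicate 3 *Cldn11*, *Mag* and *Cnp* lie right of 0.

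The members varied together from animal to animal, and much of this variation ran across the genotypes. For each member, the log2 level in an animal was set against its mean over the 7 animals. The mean of this deviation over the 9 members was 0.09, 0.09, -0.03 and -0.65 in CrT-/y replicates 0 to 3 and -0.08, 0.36 and 0.22 in CrT+/y replicates 1 to 3. Over the 36 pairs of members, Pearson's r across the 7 animals ran from 0.63 (*Mag* with *Ermn*) to 0.98 (*Mog* with *Cldn11*), with a median of 0.90. These are given as a description, since all pairs share the same 7 libraries.

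CrT-/y replicate 3 was the lowest of the 7 animals in 9 of 9 members. Its level was between 52.8% (*Mal*) and 69.2% (*Mbp*) of the mean of the other 3 CrT-/y animals. The second lowest animal was CrT+/y replicate 1 in 5 members and CrT-/y replicate 2 in 4, and the highest was CrT+/y replicate 2 in 6, CrT+/y replicate 3 in 2 and CrT-/y replicate 0 in 1. Summed over the members, CrT-/y replicates 0 to 3 held 1139, 1122, 1030 and 726.5 FPKM and CrT+/y replicates 1 to 3 held 1059, 1361 and 1172 FPKM. Without CrT-/y replicate 3, the other 3 CrT-/y animals averaged between 64.7% (*Ermn*) and 106.8% (*Cnp*) of the CrT+/y mean, with *Mal* at 83.6%, *Mobp* at 88.4% and *Mbp* at 89.9%.

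**Figure D3:**
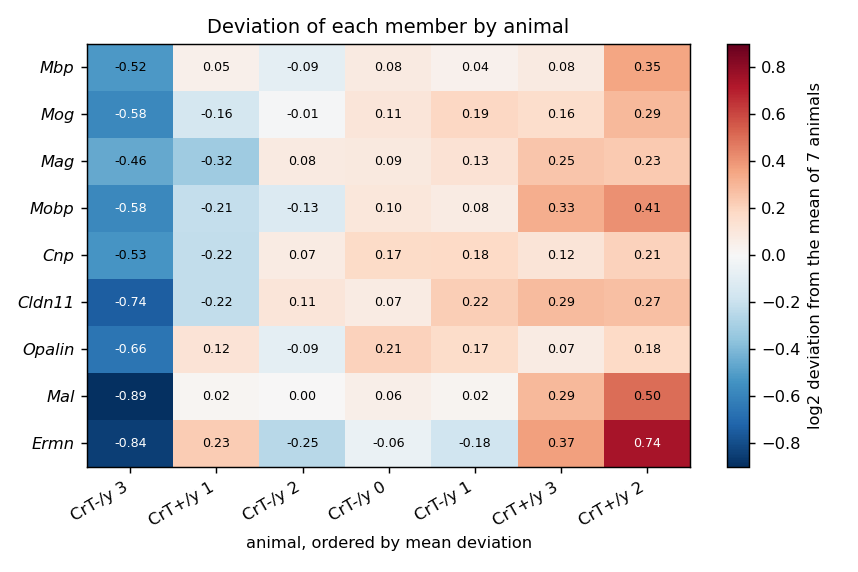
Log2 deviation of each member (rows) from its mean over the 7 animals, by animal (columns, ordered by the mean deviation over the members), with the value printed in each cell. The column of CrT-/y replicate 3 is below 0 in every row, from -0.46 for *Mag* to -0.89 for *Mal*, and that of CrT+/y replicate 2 is above 0 in every row, from 0.18 for *Opalin* to 0.74 for *Ermn*.

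Markers of tissue next to the cortex also differed between animals. The summed level of 8 striatal neuron genes was 433.6, 508.2, 280.8 and 210.0 FPKM in CrT-/y replicates 0 to 3. It was 122.6, 470.9 and 215.8 FPKM in CrT+/y replicates 1 to 3. CrT+/y replicate 1 held the least, and CrT-/y replicate 3 and CrT+/y replicate 3 held nearly equal sums. The mean deviation of the members in those last animals was -0.65 and 0.22. The 6 choroid plexus genes summed to 52.0, 26.8, 6.80 and 2.86 FPKM and to 6.12, 399.3 and 20.1 FPKM in the same order. The animal highest in 6 members, CrT+/y replicate 2, was thus also highest in each choroid plexus gene. The animal lowest in the members, CrT-/y replicate 3, had the smallest sum and the least *Ttr*, at 0.32 FPKM. CrT+/y replicate 1 was instead the lowest in *Kl*, *Folr1*, *Clic6* and *Aqp1*, and CrT+/y replicate 3 in *Kcne2*. The part of tissue next to the cortex in the levels of the members was not tested. Of 6 Schwann cell genes, 5 were under 1 FPKM in mean level.

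The genes that followed the members most closely over the 7 animals were looked for among the 12979 other tested genes, by Pearson's r with the mean deviation of the members. Among the 10 nearest were *Gpr37*, a receptor of oligodendrocytes (r = 0.998), *Chchd7* (0.985), *Sept4* (0.973), *Prr18* (0.972), *Sox10*, a transcription factor of the lineage (0.970), *Qdpr* (0.965), *Clic4* (0.961), *Erbb3*, a neuregulin receptor (0.960), and *Slc44a1*, a choline transporter (0.959). None of the 10 was called between genotypes by limma, at adjusted p from 0.26 to 0.59, and 0 had an unadjusted p under 0.05. The mean deviation of the members itself overlapped between genotypes. Genes chosen for following it closely were therefore unlikely to be called, and the absence of calls says nothing further about them. Over all other genes the median r was 0.065, with 69 genes above 0.9 and 12 below -0.9.

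Because the members varied together, each was also set against the mean log2 level of the other 8 in the same animal, a comparison chosen after the levels had been seen. Any scaling that multiplies a whole library by 1 factor leaves these values nearly unchanged. In 4 of 9 members the groups then did not overlap. The 9 differences sum to about 0 by construction, so a lower ratio in some members makes higher ratios in others, and the direction of a ratio is not independent between members. *Ermn* and *Mal* were lower relative to the others in every CrT-/y animal than in any CrT+/y animal, and *Cnp* and *Mog* were higher. Groups did not overlap in either direction in 21.6% of all tested genes by level, and in 9.84% of the 12979 other genes when each was set against the mean of the 9 members. Neither share is a like background for the 4 of 9. The members vary with their reference (median r of 0.90 between members), so the ratio removes variation that they share. Most other genes do not follow the members (median r of 0.065), so for them the ratio adds that variation.

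*Ermn* stood at -2.42, -2.56, -2.50 and -2.48 relative to the other members in CrT-/y replicates 0 to 3 and at -1.91, -1.81 and -2.08 in CrT+/y replicates 1 to 3 (log2). The difference was -0.55 (exact permutation p = 0.0286, unadjusted, 1 of 9 such tests). In this ratio CrT-/y replicate 3 no longer stood apart from the other CrT-/y animals. Leaving out 1 animal at a time gave -0.63 to -0.49.

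*Cnp* stood at 0.99, 0.99, 1.02 and 1.03 in CrT-/y replicates 0 to 3 and at 0.74, 0.73 and 0.79 in CrT+/y replicates 1 to 3. Its relative level was thus 1.01 ± 0.019 and 0.75 ± 0.030 (SD, n = 4 and n = 3), a difference of 0.25 in log2 (exact permutation p = 0.0286). With *Ermn* taken out of the reference the difference of *Cnp* was 0.19 (exact p = 0.0286), with *Mal* then the lowest of the 8 at -0.28. The level of *Cnp* in FPKM passed neither test above, so the ratio separated the genotypes where the level did not.

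*Mog* was higher relative to the other members by 0.13 (exact p = 0.0286), but by 0.06 (exact p = 0.0857) with *Ermn* taken out of the reference and by 0.10 (exact p = 0.0571) after removing the transcript length trend. *Mal* was at 0.22, 0.18, 0.30 and -0.02 in CrT-/y replicates 0 to 3 and at 0.37, 0.43 and 0.35 in CrT+/y replicates 1 to 3, a difference of -0.21 (exact p = 0.0571). In the other 5 members the groups overlapped, with differences of 0.22 (*Mag*), 0.10 (*Cldn11*), 0.08 (*Opalin*), -0.02 (*Mobp*) and 0.007 (*Mbp*) and exact p from 0.114 to 0.971. The sign for *Mbp* and *Mobp* changed with the setting.

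**Figure D4:**
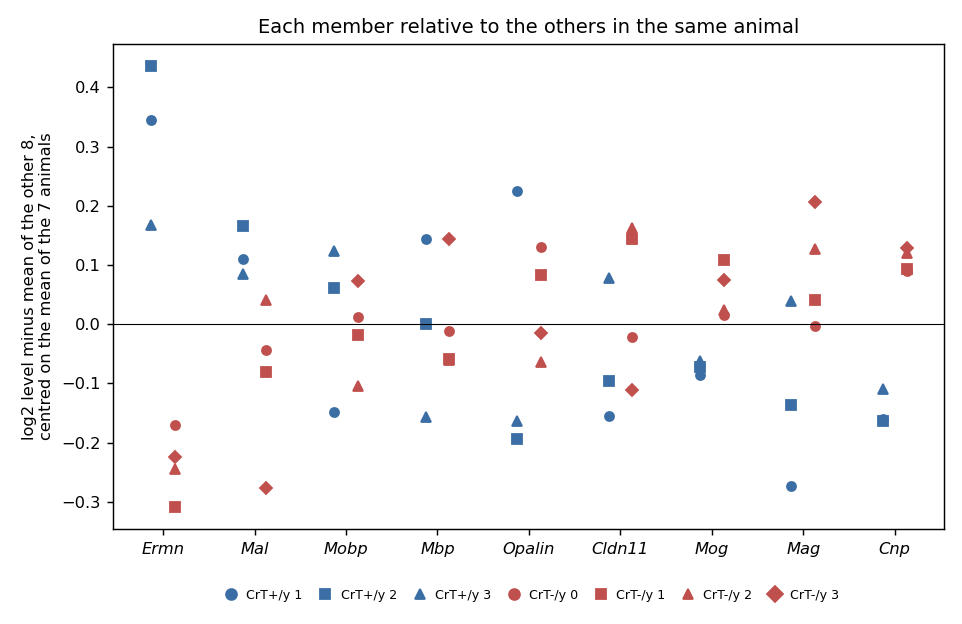
Log2 level of each member minus the mean log2 level of the other 8 in the same animal, centred on its mean over the 7 animals (vertical axis), with members ordered by the difference between genotypes, CrT+/y in blue and CrT-/y in red. Red and blue points are separate in *Ermn* and *Mal*, where red is lower, and in *Mog* and *Cnp*, where red is higher.

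The promoters of the members were also read for motifs of SOX factors and MYRF. Whether such motifs bear on how the members varied together was not tested. RefSeq (GRCm38.p6) gave a window from 250 bases before to 50 bases after the transcription start for 8 of 9 members, and for *Mag*, which had 3, the window nearest to the annotated start of the gene was used. The windows were searched on both strands for ACAAAG and ACAATG, core motifs of SOX factors (CTTTGT and CATTGT on the other strand), and for CTGGCAC and CTGGTAC, the motif of MYRF (GTGCCAG and GTACCAG on the other strand). The SOX and MYRF motifs do not overlap each other in these windows. A SOX core was in 5 of the 8 windows (*Mag*, *Mobp*, *Cnp*, *Opalin* and *Ermn*) and in 28.6% of all 32851 windows, and a MYRF motif was in 4 of the 8 (*Mog*, *Mag*, *Cnp* and *Opalin*) and in 7.1% of all windows. *Mal* and *Cldn11* had neither.

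The 250 bases before the start are shown 5′ to 3′ for *Mobp*, which held the most SOX cores, and for the 4 members whose ratio to the others separated the genotypes. Capitals mark the motifs.
Mobp, chr9:120149492-120149741, plus strand: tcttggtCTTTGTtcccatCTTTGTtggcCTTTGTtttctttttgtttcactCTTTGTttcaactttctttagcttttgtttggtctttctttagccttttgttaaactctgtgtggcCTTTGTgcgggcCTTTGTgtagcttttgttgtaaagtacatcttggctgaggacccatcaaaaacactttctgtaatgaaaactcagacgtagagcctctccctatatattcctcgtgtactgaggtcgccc
Cnp, chr11:100574689-100574938, plus strand: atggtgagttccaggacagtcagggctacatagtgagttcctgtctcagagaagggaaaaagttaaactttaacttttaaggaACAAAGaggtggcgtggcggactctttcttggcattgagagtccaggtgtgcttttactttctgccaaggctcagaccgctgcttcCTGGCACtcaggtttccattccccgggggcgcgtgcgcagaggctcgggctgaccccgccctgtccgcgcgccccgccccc
Mog, chr17:37023399-37023648, minus strand: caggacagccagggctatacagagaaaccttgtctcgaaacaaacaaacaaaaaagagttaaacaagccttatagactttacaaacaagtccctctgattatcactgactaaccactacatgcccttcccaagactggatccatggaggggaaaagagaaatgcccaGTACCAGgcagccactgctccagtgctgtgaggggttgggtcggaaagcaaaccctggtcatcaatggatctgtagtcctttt
Ermn, chr2:58052865-58053114, minus strand: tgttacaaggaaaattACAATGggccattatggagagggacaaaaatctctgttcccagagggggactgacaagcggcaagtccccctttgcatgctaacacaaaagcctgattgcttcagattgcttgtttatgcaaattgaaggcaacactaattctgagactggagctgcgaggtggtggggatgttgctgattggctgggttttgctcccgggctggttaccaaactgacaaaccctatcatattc
Mal, chr2:127656696-127656945, minus strand: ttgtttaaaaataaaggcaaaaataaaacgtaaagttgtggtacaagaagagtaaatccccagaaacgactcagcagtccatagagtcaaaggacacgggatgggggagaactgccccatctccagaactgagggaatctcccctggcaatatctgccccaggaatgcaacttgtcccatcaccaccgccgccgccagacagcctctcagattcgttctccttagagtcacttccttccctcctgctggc
*Mobp* carried 6 SOX cores, all as CTTTGT, and was the only one of the 32851 windows with 6. *Cnp* carried ACAAAG 167 bases and CTGGCAC 81 bases before the start, *Mog* carried GTACCAG 83 bases before it, and *Ermn* carried ACAATG 234 bases before it. These are matches of letters, and occupancy was not measured.

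Other genes of the lineage were read from lists of known markers. Of 61 tested genes in the other lists of the lineage, 7 were lower and none higher in CrT-/y mice at an adjusted p under 0.1 (11.5%, against 7.25% of all genes), and 52 had a negative log2 fold change, with a median of -0.18. At an unadjusted p under 0.05 by limma there were 17 of 61, a pooled share near the 25.0% of all genes. The lists differed in this, with 12 of the 30 other mature oligodendrocyte genes and 0 of the 10 precursor genes. With CrT-/y replicate 3 left out, 2 of the 61 were called and the median was -0.14, and with CrT-/y replicate 1 left out 0 were. Over the whole table, 242 and 53 of 12988 genes were called lower in the same fits. In CrT-/y replicate 3 the mean deviation was -0.34 over the 30 other mature oligodendrocyte genes, against -0.65 over the members, and -0.06 over the 10 precursor genes.

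Among the 30 other genes of mature oligodendrocytes, 5 were lower (16.7%, against 7.25% of all genes) and none was higher by limma. With 1 animal left out, the count lower was 0, 1 and 2 without CrT-/y replicates 1, 2 and 3. It was 4 to 6 otherwise. Calls were also lost over the whole table, where 941 genes were lower in the main fit and 53, 166 and 242 without CrT-/y replicates 1, 2 and 3. *Car2*, a carbonic anhydrase, was at 75.0, 68.6, 71.3 and 61.0 FPKM in CrT-/y replicates 0 to 3 and at 89.4, 102.6 and 87.5 FPKM in CrT+/y replicates 1 to 3, with no overlap (log2 fold change -0.43, limma adjusted p = 0.036). *Tppp*, a tubulin-binding protein of oligodendrocytes, was at 123.5 ± 1.75 and 146.0 ± 4.17 FPKM (SD, n = 4 and n = 3; log2 fold change -0.24, limma adjusted p = 0.039). *Cryab*, a small heat shock protein that astrocytes can also express, had a log2 fold change of -0.76 (adjusted p = 0.04), and *Anln*, a septin-binding protein, one of -0.52 (adjusted p = 0.083, groups overlapping, called in 6 of 20 alternatives). *Ugt8a*, the enzyme that makes galactosylceramide and the 1 called gene of the 9 myelin lipid genes, was at 17.0, 14.0, 14.5 and 12.1 FPKM in CrT-/y replicates 0 to 3 and at 18.6, 24.0 and 19.6 FPKM in CrT+/y replicates 1 to 3 (log2 fold change -0.53, limma adjusted p = 0.053). *Tppp* was called in 14 of 20 alternatives and *Ugt8a* in 15, against 19 for *Car2* and 18 for *Cryab*. CrT-/y replicate 3, the lowest animal in all members, had *Tppp* at 121.6 FPKM, against 122.4 to 125.3 FPKM in the other CrT-/y animals.

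Of 11 lineage transcription factors, 1 was lower. *Olig2* was at 10.9, 8.16, 8.64 and 8.68 FPKM in CrT-/y replicates 0 to 3 and at 13.2, 11.2 and 11.2 FPKM in CrT+/y replicates 1 to 3 (log2 fold change -0.39, limma adjusted p = 0.078). The call was lost in 10 of 20 alternatives, among them all 3 scalings of whole libraries and the fits without CrT-/y replicates 1, 2 or 3 or CrT+/y replicates 1 or 2. *Olig1* and *Myrf* had log2 fold changes of -0.26 and -0.34 (adjusted p = 0.12 and 0.24). Of 7 newly formed oligodendrocyte genes, *Bcas1* was lower (log2 fold change -0.35, limma adjusted p = 0.086), a call lost in 12 of 20 alternatives, the 3 scalings and the same 5 fits without an animal among them. *Gpr17*, a receptor of that stage, did not pass (log2 fold change -0.38, adjusted p = 0.12). None of the 10 precursor genes was called by limma in either direction, and 0 had an unadjusted p under 0.05. *Pdgfra*, the growth factor receptor that marks precursors, had a log2 fold change of -0.07 (adjusted p = 0.56).

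On the axonal side, none of 11 tested genes of the node, paranode and neurofilaments was higher, against 2.9% of all genes. In CrT-/y mice 5 were lower (45.5%, against 7.25% of all genes). The count was 3 with quantile normalization, upper quartile scaling or the length trend removed, 2 with the replicate block, 0 without CrT-/y replicate 1, 1 without CrT-/y replicate 2, 2 without CrT-/y replicate 3 or CrT+/y replicate 1, 3 without CrT-/y replicate 0, and 4 or more otherwise. Over the whole table, 53, 166 and 242 of 12988 genes were called lower without CrT-/y replicates 1, 2 and 3. The neurofilament genes *Nefm*, *Nefh* and *Nefl* had log2 fold changes of -0.55, -0.51 and -0.25 (limma adjusted p = 0.031, 0.048 and 0.057). *Nfasc* and *Ank3*, an adhesion molecule and an anchoring protein of the node region, had -0.24 each (adjusted p = 0.05 and 0.08), and were called in 11 and 6 of 20 alternatives. *Gldn*, below the filter on low values, had means of 0.630 and 0.323 FPKM in CrT-/y and CrT+/y mice, with no overlap. With the filter at a mean of 0.1 FPKM, 1 of 12 genes of the list was called higher, against 342 of 15991 genes over the whole table. In this list CrT-/y replicate 3 deviated by -0.04, and CrT+/y replicate 1 by 0.14.

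**Figure D5:**
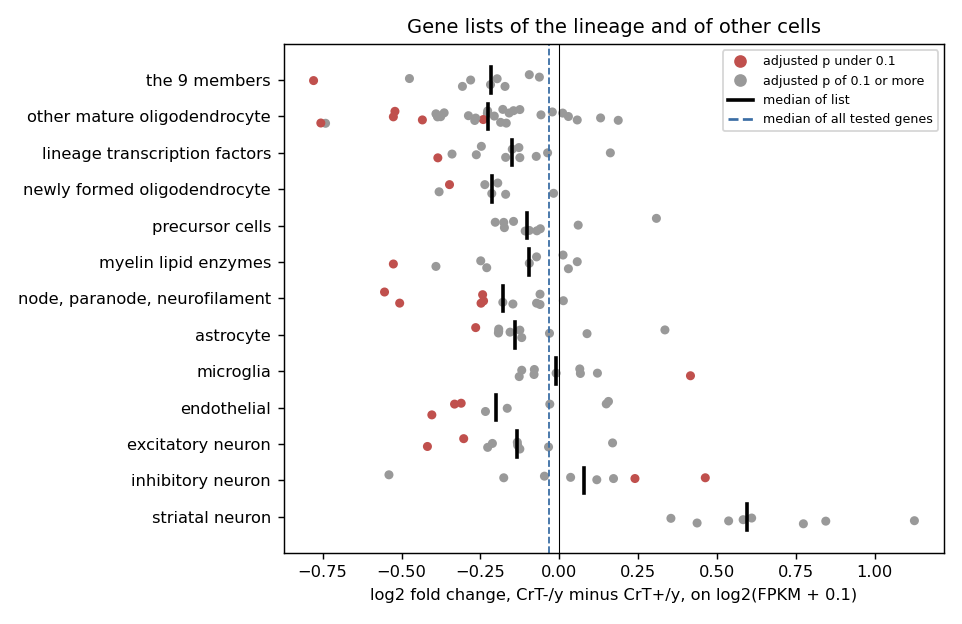
Log2 fold change, CrT-/y minus CrT+/y, on log2(FPKM + 0.1) (horizontal axis) of every tested gene in each list (points, red where the limma adjusted p is under 0.1, vertical position within a row has no meaning), with the median of each list (black bars) and of all tested genes (dashed line, -0.03). The medians of the members and of the other mature oligodendrocyte genes are at -0.22 and -0.23 (-0.03 and -0.16 without CrT-/y replicate 3), and the striatal neuron genes lie right of 0 with none called.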

How the data were processed

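Total RNA from the cortex of 7 mice was sequenced with an mRNA-Seq kit, 1 library per animal, and groups were taken from the genotype labels. The authors aligned reads to mm10 with the Tuxedo protocol (the submitters' processing notes name Bowtie and Cuffnorm), kept reads with up to 2 mismatches on known exons or junctions, and deposited a single table of FPKM per gene. FPKM are not counts and hide the depth of each library, so no counting interval is given. Here log2(FPKM + 0.1) was tested on genotype, for genes whose mean reached 1 FPKM, with limma 3.58.1 (R 4.3.3), with a trend in the moderation and Benjamini-Hochberg adjustment over 12988 genes. The threshold was an adjusted p under 0.1. Single genes were also tested by exact permutation over 35 splits (scipy 1.17.1). The 0.1 added makes fold changes of weak genes slightly too small.

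The members and the 14 other gene lists were chosen with earlier results of these data known. Named genes are the members, *Slc6a8*, the called genes and the 3 smallest p-values where a list is described, and the 10 genes nearest to the members. In lists described in brief, fewer are named, and some genes that the rule names are not reported here. The labels do not say whether replicate numbers pair the animals, and the main fit treated the animals as unpaired. Same-numbered animals did not deviate together (r = -0.078, 0.046 and -0.051), while other pairs ran from -0.202 to 0.247. Such values cannot exclude pairing, since animals of 1 litter need not deviate together. Positions come from GENCODE M21. Alternatives covered the pseudocount, the filter, scaling, transcript length (known for 99.5% of tested genes), moderation, sample weights, a replicate block and each animal left out.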

Additional observations from a re-analysis of the deposited data

Results flagged for a closer look

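In 2 members 1 animal stood far from the others of its group. *Mag* in CrT-/y replicate 3, at 29.8 FPKM, was separated from the next CrT-/y animal by 0.898 of the range of the 4 animals, and *Mal* in the same animal, at 32.4 FPKM, by 0.927, both above Dixon's 95% critical value for 4 samples. Chance flags about 5% of groups, and the 9 members are not independent of each other. The same animal was the lowest of the 7 in all 9 members. The CrT+/y group of 3 animals was not checked in this way.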

How the results depend on the processing

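With 4 and 3 animals, the exact test cannot give p under 0.0286, or under 0.1 for 3 against 3, and FPKM hide the depth of each library. The causes of the changes below were not tested. Over 20 alternatives the log2 fold change kept its sign in 6 of 9 members. The exceptions were *Mag* (0.045 without CrT-/y replicate 3, 0.004 without CrT+/y replicate 3, and -0.283 to 0.045 with each animal left out), *Cnp* (0.014 with quantile normalization, 0.105 without CrT-/y replicate 3, 0.024 without CrT+/y replicate 2, and -0.191 to 0.105) and *Cldn11* (0.023 without CrT-/y replicate 3, and -0.362 to 0.023). Relative to the other members, *Mbp* was at -0.004 with a pseudocount of 1, -0.04 without CrT-/y replicate 3, -0.069 without CrT+/y replicate 3 and -0.063 with *Ermn* out of the reference, and from -0.069 to 0.081 with each animal left out, and *Mobp* was at 0.01, 0.003 and 0.034 without CrT-/y replicate 2, CrT+/y replicate 2 and CrT+/y replicate 3 (from -0.102 to 0.034 in all).

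The count of members called lower was 0 without a filter and from 0 to 1 when 1 animal was left out. Over the whole table, genes called lower were 524 without a filter, 555 with quantile normalization, 463 with upper quartile scaling, 527 with median centring, 625 without the trend and 53 to 2393 with 1 animal left out, the lowest when CrT-/y replicate 1 was left out and the highest when CrT+/y replicate 3 was. Genes called higher were 206 without a filter, 741 with upper quartile scaling, 567 without the length trend, 602 with array weights and 11 to 1340 with 1 animal left out. Genes of the other lineage lists called lower were 4 each without a filter, with upper quartile scaling, with median centring and without the trend, and 0 to 11 with 1 animal left out. With the replicate number as a block, 410 genes were lower and 166 higher, and after removing the length trend as well 228 and 140. The block changed the call of no member.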

Other observations

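Other cell types of the cortex were read from their own marker lists. Of 56 tested genes in the lists below, 6 were lower (10.7%, against 7.25% of all genes). In the same lists 3 were higher, against 2.9% of all genes. Of 9 microglial genes, *Trem2*, a lipid-sensing receptor of microglia, was higher in CrT-/y mice, at 8.98, 8.85, 9.84 and 9.30 FPKM in replicates 0 to 3 against 6.70, 6.32 and 7.74 FPKM in CrT+/y replicates 1 to 3 (log2 fold change 0.42, limma adjusted p = 0.039), and none was lower. Of 8 endothelial genes, 3 were lower (*Flt1*, *Pecam1* and *Ly6c1*, log2 fold changes -0.40, -0.31 and -0.33, limma adjusted p = 0.042, 0.062 and 0.098) and none was higher. They were called in 16, 11 and 8 of 20 alternatives, in the same order. Of 10 astrocyte genes, *Sox9* was lower (log2 fold change -0.27, limma adjusted p = 0.09), a call lost in 14 of 20 alternatives, whereas *Gfap* was at 0.34 (adjusted p = 0.31).

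Of 9 excitatory neuron genes, 2 were lower and none higher by limma, among them *Neurod6* (log2 fold change -0.42, limma adjusted p = 0.061). Of 8 inhibitory neuron genes, *Adarb2* and *Gad1* were higher (0.46 and 0.24, limma adjusted p = 0.044 and 0.097), *Gad1* in 9 of 20 alternatives. The direction differed within that list, with 3 of 8 genes below 0: *Pvalb* at -0.54 (adjusted p = 0.24), *Lhx6* at -0.18 (adjusted p = 0.20, groups not overlapping) and *Sst* at -0.05 (adjusted p = 0.76). With the replicate block 1 inhibitory neuron gene was called lower. Each call in these lists was lost in 3 or more of the 20 alternatives. The 8 striatal genes had log2 fold changes above 0 with a median of 0.60, and the 3 tested choroid plexus genes a median of -0.61, with none called in either list by limma and 0 at an unadjusted p under 0.05 in each. The 1 tested Schwann cell gene was at -0.08 and was not called.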
